A study of Mus musculus with 6 samples.

Results

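The Hox genes encode homeodomain transcription factors and lie in 4 clusters of the mouse genome. All genes of the count files whose symbol is Hox followed by a cluster letter and a paralog number were taken, which gave 39 of 49315 genes. Their cluster and paralog number set the order below, and none was chosen by its level. The RNA came from granulosa cells, the somatic cells that surround the oocyte, of C57BL/6J mice aged 8 to 9 weeks. There were 3 libraries labelled wild type (WT) and 3 labelled Jmjd3 knockout (KO), in which Jmjd3 (Kdm6b) was to be removed from granulosa cells. The labels used here name neither the Cre driver nor the deleted exons. They also do not say whether replicates came from separate animals, so each p-value speaks only of variation among the 6 libraries, and that variation may be technical.

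In the embryo the order of Hox genes along a cluster matches the order in which they are active along the body. Genes at the 3′ end (low paralog numbers) act in the hindbrain and neck, and genes at the 5′ end (high numbers) in the tail, distal limbs and genital tract. Silent Hox genes carry the H3K27 methyl mark laid down by Polycomb complexes, and JMJD3 is an enzyme that removes this mark. Adult cells commonly keep a part of the Hox pattern of the place where they arose.

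Read totals lay between 42379018 and 49901493 counts per library. Levels are given as CPM, read counts scaled to library sizes adjusted by TMM, and 1 CPM stood for 42.5 to 51.4 counts. Each of the 14 granulosa cell markers was above 0.5 CPM on average. Across WT replicates 1 to 3 Kdm6b read 72.7, 66.3 and 66.1 CPM, and across KO replicates 1 to 3 it read 64.7, 68.6 and 112 CPM. Its RNA was not lower under the KO label, so the genotype rests on the labels here. Counts summed over a whole gene need not show the loss of single exons. Markers of other cell types were also present, and in bulk RNA fewer cells of a type and less RNA per cell cannot be told apart.

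As an example of likeness between members, 45 bases of the homeobox are given for the 3 members of paralog group 8, the group with the highest summed level (51.3 CPM). They cover the helix that contacts DNA, come from GENCODE M21 transcripts (GRCm38), and have in capitals the bases that differ from Hoxd8.
Hoxd8: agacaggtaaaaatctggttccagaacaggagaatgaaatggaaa
Hoxb8: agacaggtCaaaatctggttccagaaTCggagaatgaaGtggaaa
Hoxc8: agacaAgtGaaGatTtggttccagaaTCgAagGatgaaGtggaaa
Over the whole homeobox of 180 bases, Hoxd8 shared 80.6% of its bases with Hoxb8 and 73.3% with Hoxc8. Over all pairs of members this share ran from 46.1% to 93.9%. Among the 741 pairs of members, the longest identical run between genes that do not overlap was 52 bases (Hoxa6 and Hoxb4), against reads of 150 bases. Overlap in the annotation was larger. Hoxd3 shared 62.8% of its exon bases with other genes, among them Hoxd4, which itself shared 52.3%. Hoxb3 shared 52.9% with the antisense gene Hoxb3os, and Hoxa7 20.4% with the antisense gene Hoxaas3. These 4 were the detected members with over 20% shared. Undetected Hoxa11 (35.0%), Hoxb2 (27.3%) and Hoxa3 (27.1%) were also over 20%. The values of all of these genes are uncertain, since reads in shared exons cannot be assigned to 1 gene. Without strand a gene and its antisense partner cannot be told apart.

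A gene was counted as detected at a mean of at least 0.5 CPM over the 6 libraries, and 19 of the 39 Hox genes (48.7%) reached this level. The same threshold was passed by 32.2% of all genes in the files and by 65.7% of the protein-coding ones. Detected genes lay in blocks. The Hoxc cluster was detected from Hoxc4 to Hoxc10 (6 of 9 genes) and the Hoxd cluster from Hoxd3 to Hoxd11 (6 of 9). In the Hoxb cluster 6 of 10 were detected, as the pair Hoxb3 and Hoxb4 and the block from Hoxb6 to Hoxb9. In the Hoxa cluster 1 of 11 was detected, Hoxa7. By position, 5 of 12 anterior genes (paralogs 1 to 4), 8 of 11 central genes (5 to 8) and 6 of 16 posterior genes (9 to 13) were detected. No member of paralog groups 1, 2, 12 or 13 was detected, and every member of groups 7 and 8 was. The pattern depends on the threshold, above all in Hoxb. At a mean of 1 CPM Hoxb3, Hoxb6, Hoxb8 and Hoxd3 dropped out. At a mean of 0.25 CPM Hoxa3, Hoxa5, Hoxb2 and Hoxb5 were added.

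**Figure D1:**
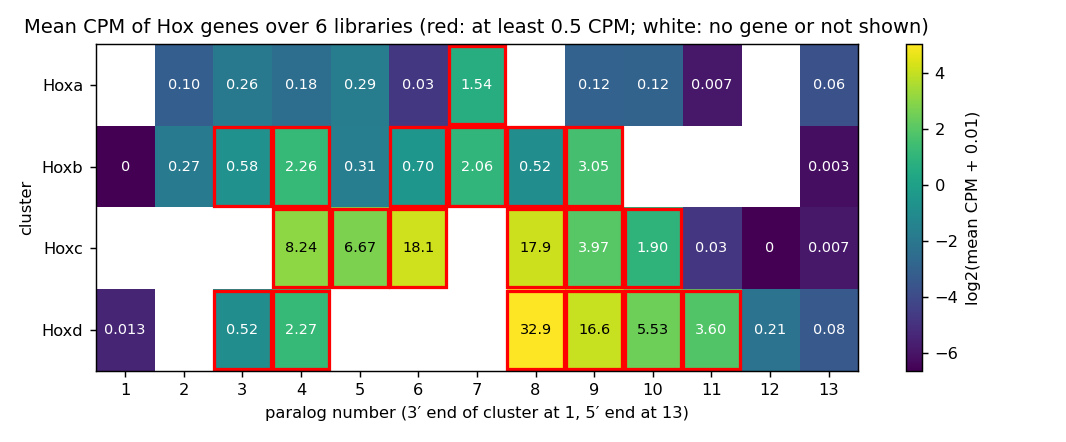
Mean level in CPM over 6 libraries of the Hox genes, with clusters as rows and paralog numbers as columns. Red frames mark the 19 genes at or above 0.5 CPM, which form unbroken blocks in Hoxc and Hoxd and a single gene in Hoxa.

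The sequences before 2 gene starts are shown to set a detected gene beside an undetected one of the same cluster. Each is 250 bases on the gene's strand, with every CpG, the step at which DNA is methylated, in capitals. Hoxd8 was the Hox gene with the highest level, and Hoxd1 is an undetected gene at the 3′ end of its cluster. The sequences are from RefSeq (GRCm38.p6), which held 24 promoters of 22 members. They lie at chr2:74704365-74704614 and chr2:74762730-74762979 on the plus strand, directly before the spans that were counted.
Hoxd8: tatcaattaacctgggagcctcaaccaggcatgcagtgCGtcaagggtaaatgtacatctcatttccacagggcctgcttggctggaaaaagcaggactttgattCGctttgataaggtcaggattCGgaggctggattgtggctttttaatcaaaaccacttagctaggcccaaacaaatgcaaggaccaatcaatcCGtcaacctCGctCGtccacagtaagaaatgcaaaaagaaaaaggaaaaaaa
Hoxd1: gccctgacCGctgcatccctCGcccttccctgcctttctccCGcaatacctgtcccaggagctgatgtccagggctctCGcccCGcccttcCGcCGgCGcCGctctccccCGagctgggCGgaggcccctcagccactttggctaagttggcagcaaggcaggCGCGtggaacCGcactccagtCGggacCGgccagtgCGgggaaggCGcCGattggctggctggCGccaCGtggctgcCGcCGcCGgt
The printed stretch held 6 CpG in Hoxd8 and 24 in Hoxd1. This pair does not stand for the cluster. The like stretch held 12 in Hoxd3, 3 in Hoxd4, 13 in Hoxd9, 20 in Hoxd10, and 2 and 20 in Hoxd11, all detected. It held 10 in Hoxd12 and 31 in Hoxd13, both undetected. RefSeq starts of other members, Hoxa7 and Hoxa9 among them, can lie inside the counted span, whose longer transcripts begin farther 5′. Over the whole windows, which reach 50 bases past the start, the median was 13 CpG for 11 promoters of detected members (range 4 to 25). It was 20 for 13 promoters of undetected members (range 4 to 45) and 7 for all 32851 promoters in the table. Most of the undetected promoters were of Hoxa members, so detection and cluster are mixed in these medians. The letters TGATNNAT, a form of the joint site of PBX and HOX proteins, were searched on both strands. They were found in 2 of the 11 and 2 of the 13 promoters, against 8.85% of all promoters. The letters TGACAG, a MEIS site, were found in 0 and 2 of them, against 19.2% of all promoters.

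Compared per kilobase of exon, 4 genes of the Hoxd and Hoxc clusters headed the order. The level of Hoxd8 (chr2:74704615-74707933) was 11.98 ± 0.674 CPM per kilobase (SD, n = 6 libraries), and that of Hoxd9 was 7.77 ± 0.517. Hoxc6 followed at 7.50 ± 0.979 and Hoxc8 at 6.33 ± 1.21 CPM per kilobase. These SDs take WT and KO libraries together. Hoxd9 and Hoxc6 differed by less than their spread, while Hoxd8 lay above Hoxd9, Hoxc6 and Hoxc8 by more than that. Within groups Hoxc6 had the higher mean, with 8.19 ± 0.484 against 7.27 ± 0.672 for Hoxc8 in WT (SD, n = 3). In KO it was 6.81 ± 0.859 against 5.38 ± 0.722. Hoxc4 (3.21 ± 0.338 CPM per kilobase) and Hoxd10 (3.05 ± 0.711) came next. In WT Hoxc4 was the higher of these (3.50 ± 0.0858 against 2.72 ± 0.241), and in KO the lower (2.91 ± 0.129 against 3.37 ± 0.947). Hoxc5, Hoxc9, Hoxb7, Hoxb9, Hoxc10, Hoxb4, Hoxd11, Hoxd4 and Hoxa7 followed, from 2.16 down to 0.536 CPM per kilobase. Hoxd8, Hoxd9, Hoxc6 and Hoxc8 together held 65.2% of the summed Hox level in CPM, and Hoxd8 alone 25.1%. By cluster, Hoxd held 47.1%, Hoxc 43.3%, Hoxb 7.45% and Hoxa 2.14%.

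The Hoxd cluster peaked at Hoxd8, with lower levels on both sides. Across WT Hoxd8 read 32.9, 32.8 and 35.9 CPM, and across KO 32.8, 32.8 and 30.1 CPM (replicates 1 to 3, as below). Hoxd9, which acts in limb and lumbar development, read 16.1, 18.6 and 17.0 CPM across WT and 16.4, 16.1 and 15.4 CPM across KO. Both genes were steady, with coefficients of variation of 5.63% and 6.65%, and their groups overlapped. For KO over WT the log2 fold change of Hoxd8 was -0.09 ± 0.07 (SE), with a 95% confidence interval from -0.26 to 0.08. For Hoxd9 it was -0.11 ± 0.09, with an interval from -0.31 to 0.08. Neither passed the quasi-likelihood test of edgeR, adjusted by Benjamini-Hochberg over the 18250 genes tested (adjusted p = 0.749 and 0.719). Toward the 3′ end, Hoxd4 had means of 2.13 ± 0.574 (WT) and 2.40 ± 0.0852 CPM (KO; SD, n = 3 each), and Hoxd3 of 0.562 ± 0.299 and 0.479 ± 0.186 CPM. Both sets overlapped. Hoxd1, at 0.0133 CPM, received 4 counts over the 6 libraries.

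At the 5′ end of Hoxd, 1 library stood apart. Hoxd11 (chr2:74679557-74687016), which shapes the forearm and kidney, read 3.85, 2.496 and 2.36 CPM across WT, 2.07 and 2.09 CPM for KO replicates 1 and 2, and 8.72 CPM for KO replicate 3. Its 3′ neighbour Hoxd10, a lumbar motor neuron gene, read 5.35, 5.01 and 4.48 CPM across WT and 4.71, 5.60 and 8.03 CPM across KO. Hoxd12, which acts in digits and genitalia, ranged from 0.0793 to 0.192 CPM in 5 libraries and was at 0.540 CPM in KO replicate 3, from 60 counts in all. KO replicate 3 thus exceeded the highest other library 1.43-fold for Hoxd10, 2.26-fold for Hoxd11 and 2.81-fold for Hoxd12. For Hoxd9 (0.828-fold), Hoxd8 (0.837-fold) and Hoxd13 (0.838-fold, 25 counts) it did not. The non-coding gene Gm28309, which lies across Hoxd11 and Hoxd10 and shares exon bases with them, was also highest there, with 0.436 CPM against 0.126 to 0.311 CPM.

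**Figure D2:**
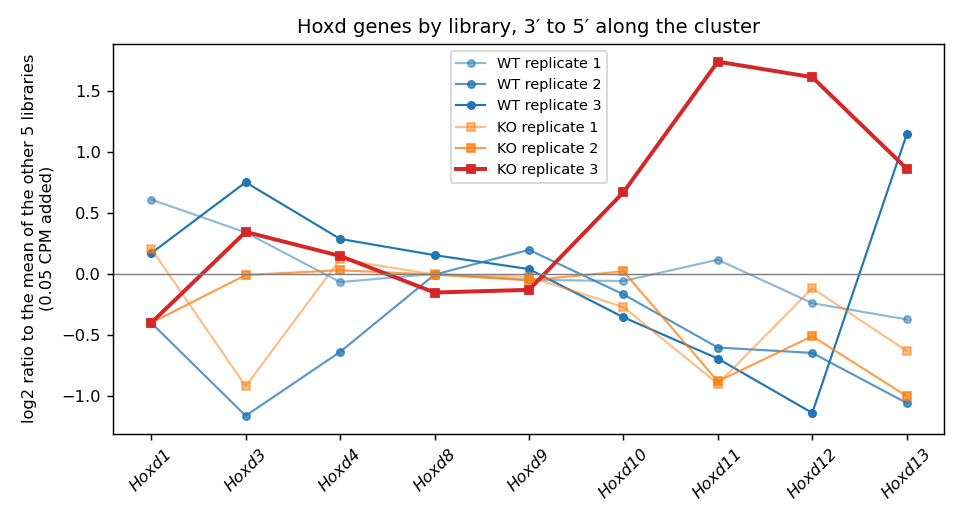
Log2 ratio of each library to the mean of the other 5 for the 9 Hoxd genes in order along the cluster. The line of KO replicate 3 lies near 0 at Hoxd8 and Hoxd9 and above every other library at Hoxd10, Hoxd11 and Hoxd12.

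With all libraries, the log2 fold change of Hoxd11 was 0.57 ± 0.66 (SE), with an interval from -1.11 to 2.24 (adjusted p = 0.831, edgeR). Without KO replicate 3 its sign turned, to -0.48 (adjusted p = 0.316). The value of Hoxd10 was 0.31 ± 0.20 (adjusted p = 0.668), and 0.06 without that library. Of the 18250 genes tested, KO replicate 3 reached at least 2 times the highest other library in 0.91%. The same share was 0.0438% for WT replicate 1, 0.00548% for WT replicate 2, 0.0438% for WT replicate 3, 0.0877% for KO replicate 1 and 0.0% for KO replicate 2. Markers of 5 lists of other cells were mostly at their lowest in KO replicate 3: 8 of 9 stromal fibroblast markers, 8 of 8 smooth muscle and pericyte markers and 11 of 14 markers of ovarian surface and oviduct epithelium, 7 of 8 of endothelium and 7 of 9 of immune cells. Of theca and interstitial markers 2 of 7 were lowest there, and of oocyte and red blood cell markers 0 of 9 and 0 of 7. The 14 granulosa cell markers summed to 18534 CPM there, against 11482 to 13408 CPM elsewhere. Inha alone gave 10002 CPM of that sum, and 8 of the 14 were highest and 3 lowest in that library. Between KO and WT, edgeR called 3 of the 14 lower (Amhr2, Nr0b1 and Wt1) and 0 higher, where 0.0932% of all genes were called lower. The part of these shifts in the Hoxd values was not tested.

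Most Hoxc genes had lower values in the libraries labelled KO, though none passed the test over all genes. Hoxc8 (chr15:102990607-102994111), a thoracic and brachial patterning gene, read 18.7, 20.6 and 22.5 CPM across WT and 16.5, 16.3 and 12.9 CPM across KO, with no overlap. Its neighbour Hoxc6 read 19.8, 18.5 and 20.8 CPM across WT and 18.6, 16.2 and 14.4 CPM across KO. The groups of Hoxc6 touched, since KO replicate 1 lay just above WT replicate 2. Hoxc4, at the 3′ end, read 9.14, 8.75 and 9.12 CPM across WT and 7.76, 7.58 and 7.12 CPM across KO, without overlap. Hoxc5, whose annotated span reaches back into Hoxc10, read 6.26, 8.64 and 8.44 CPM across WT and 7.06, 4.68 and 4.94 CPM across KO, with overlap.

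For Hoxc8 the log2 fold change was -0.43 ± 0.12 (SE), with a 95% confidence interval from -0.69 to -0.17 (adjusted p = 0.295, edgeR). It was -0.27 ± 0.11 for Hoxc6 (adjusted p = 0.482), -0.27 ± 0.11 for Hoxc4 (0.486) and -0.48 ± 0.19 for Hoxc5 (0.483). These 4 differences did not pass the threshold of 0.05. Toward the 5′ end, Hoxc9, a thoracic gene, had means of 4.29 ± 0.894 (WT) and 3.65 ± 0.502 CPM (KO), with a log2 fold change of -0.23 ± 0.19. Hoxc10, a lumbar gene, had means of 1.76 ± 0.460 and 2.05 ± 0.268 CPM, with 0.22 ± 0.22. Both pairs of groups overlapped. The Hoxc genes summed to 59.7 to 65.8 CPM across WT and 45.6 to 54.8 CPM across KO, and the Hoxd genes to 60.8 to 63.5 and 58.9 to 66.0 CPM. Whether Hoxc differed from Hoxd in its change was not tested.

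Hoxc8 kept a negative fold change in each of the 13 alternative fits, with log2 values from -0.50 to -0.33, and so did Hoxc4, Hoxc5, Hoxc6 and Hoxc9. A constant sign was not particular to Hoxc, and the fits share libraries. Hoxd8, Hoxd9, Hoxb2 and Hoxb8 were also negative in every fit that held them. Hoxc10, Hoxd10, Hoxb9 and Hoxa7 were positive in every fit. The one call of a member came for Hoxc8 with no filter on low counts (adjusted p = 0.0202; 0.617% of 32265 genes were called there). Over all fits its adjusted p ranged from 0.0202 to 0.731. KO replicate 3 was the lowest library for Hoxc4, Hoxc6 and Hoxc8, and without it the value of Hoxc8 was -0.33 (adjusted p = 0.118). Marker sums of some other cells also lay apart between the groups. The 9 oocyte markers summed to 596 to 789 CPM across WT and 480.2 to 538 CPM across KO. The 7 theca and interstitial markers summed to 892 to 1104 and 1310.4 to 1873 CPM, and the 7 red blood cell markers to 383 to 798 and 829.7 to 2259 CPM. Most of the theca sum was Aldh1a1, with 664 to 810 CPM across WT and 975 to 1375 CPM across KO. Of the 7 theca markers, 4 had a positive and 3 a negative log2 fold change. All 7 red blood cell markers were positive (median 1.25), and all 9 oocyte markers were negative (median -0.39). Of these 3 lists edgeR called 1 gene, a red blood cell marker that was higher, where 0.126% of all genes were called higher. The 9 stromal fibroblast markers overlapped, at 1053 to 1284 and 722 to 1367 CPM, with 6 negative and 3 positive (median log2 fold change -0.28). The 14 markers of ovarian surface and oviduct epithelium overlapped too, at 679 to 863 and 515 to 738 CPM. Of these, 12 were negative and 2 positive (median -0.27). Endothelial markers went the other way, with 8 of 8 positive (median 0.27), as did 7 of 9 immune cell markers. No marker of these lists was at 0 in all libraries, and their part in the Hoxc values was not tested.

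**Figure D3:**
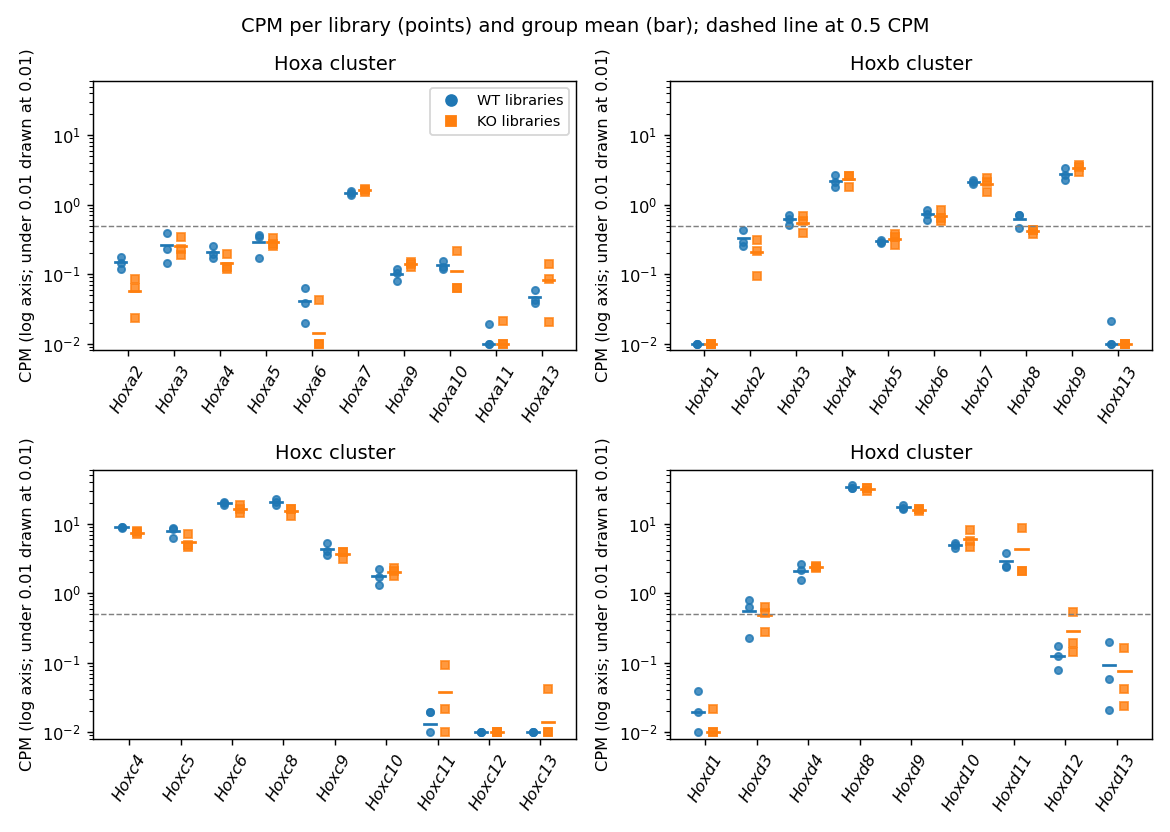
CPM of the Hox genes in each library, by cluster, with WT and KO libraries as separate points and bars at the group means. In the Hoxc panel the KO points of Hoxc4 and Hoxc8 lie below every WT point, and the mean drops from 1.90 CPM at Hoxc10 to 0.0258 CPM at Hoxc11.

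The Hoxb genes were detected at low levels. Hoxb9, the detected gene nearest the 5′ end, read 2.64, 2.24 and 3.31 CPM across WT and 3.73, 3.48 and 2.91 CPM across KO, with overlap. Hoxb4, known for the expansion of blood stem cells, read 2.66, 1.804 and 2.10 CPM across WT and 2.60, 2.59 and 1.81 CPM across KO. The groups of Hoxb4 overlapped as well. Hoxb7 had means of 2.11 ± 0.148 and 2.01 ± 0.465 CPM, Hoxb6 of 0.727 ± 0.113 and 0.681 ± 0.127 CPM, and Hoxb3, a neck and hindbrain gene, of 0.617 ± 0.0991 and 0.551 ± 0.146 CPM. None of these 5 passed the test (adjusted p from 0.658 to 0.939, edgeR). Hoxb8, which marks a lineage of microglia, was just inside the detection threshold at 0.519 CPM, with 0.700, 0.461 and 0.713 CPM across WT and 0.426, 0.377 and 0.436 CPM across KO. Its groups did not overlap, but the log2 fold change of -0.60 ± 0.28, from 151 counts in all, did not pass (adjusted p = 0.571). Hoxb5, just outside the threshold at 0.310 CPM, left a gap in the cluster that closed at a threshold of 0.25 CPM.

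Of the Hoxa genes, Hoxa7 alone was detected. It read 1.36, 1.59 and 1.49 CPM across WT and 1.62, 1.53 and 1.66 CPM across KO, with overlap (log2 fold change 0.12 ± 0.17 SE, adjusted p = 0.864). Hoxa9, Hoxa10, Hoxa11 and Hoxa13 pattern the oviduct, uterus, cervix and vagina along the embryonic Müllerian duct. Their mean levels here were 0.119, 0.123, 0.00679 and 0.0646 CPM, from 34, 35, 2 and 18 counts. Toward the 3′ end, the hindbrain gene Hoxa2 was at 0.102 CPM. Hoxa3, Hoxa4 and Hoxa5 were at 0.256, 0.176 and 0.288 CPM, and Hoxa6 at 0.0274 CPM although it lies next to Hoxa7.

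By the rule, every gene past the detected gene nearest the 5′ end was under 0.5 CPM. Only the size of the step is therefore of interest. Hoxc10 stood at 0.998 ± 0.195 and Hoxc11 at 0.0128 ± 0.0173 CPM per kilobase (SD, n = 6 libraries), from 544 and 7 counts. Hoxd11 stood at 0.854 ± 0.616 and Hoxd12 at 0.0824 ± 0.0658 CPM per kilobase. Hoxb9 stood at 1.19 ± 0.216 and Hoxb13, the next gene of its cluster, at 0.00158 ± 0.00388. In Hoxa, where 1 gene was detected, Hoxa7 stood at 0.536 ± 0.0377 and Hoxa9 at 0.0214 ± 0.00455 CPM per kilobase. Hoxc13, a hair follicle gene, and Hoxb13, a prostate and hindgut gene, received 2 counts and 1 count. Hoxb1, a hindbrain gene, and Hoxc12 received 0 counts, which over the 6 libraries allows up to 0.0104 CPM (3 counts, counting error only). No block was longer in the KO libraries. The WT means passed 0.5 CPM for 19 members and the KO means for 17, where Hoxb8 (0.413 CPM) and Hoxd3 (0.479 CPM) were below it and no gene was added. Among the 20 undetected genes, the highest level in any library was the 0.540 CPM of Hoxd12 in KO replicate 3. Hoxa9 read higher in every KO library (0.149, 0.141 and 0.125 CPM) than in any WT library (0.117, 0.105 and 0.0793 CPM). Hoxa2 was lower in every KO library (0.0853, 0.0235 and 0.0623 CPM) than in any WT library (0.175, 0.147 and 0.119 CPM). Both rest on at most 9 counts per library and were under the filter. With no filter, edgeR gave adjusted p = 0.848 for Hoxa9 and 0.729 for Hoxa2.

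Of the 23 Hox genes kept by the filter on low counts, 0 passed an adjusted p under 0.05 in edgeR, where 0.219% of all 18250 genes passed (0.126% higher and 0.0932% lower). DESeq2 also called 0 of them, where it called 1.21% of all genes. The log2 fold change was negative in 15 (65.2%, where 49.1% of all genes were negative), with a median of -0.09 against 0.0039 over all genes. The medians were -0.27 in Hoxc (5 of 6 negative), 0.04 in Hoxd (3 of 6), -0.09 in Hoxb (5 of 8) and -0.03 in Hoxa (2 of 3). Without KO replicate 3 the medians of Hoxd (-0.07), Hoxb (0.03) and Hoxa (0.04) turned sign, and that of Hoxc was -0.26. At an unadjusted p under 0.05, edgeR and DESeq2 each had 4 lower and 0 higher. In edgeR these were Hoxc4, Hoxc5, Hoxc6 and Hoxc8, 17.4% of those tested, where 4.51% of all genes were lower and 4.65% higher. This count of 4 was 1 without WT replicate 3 (with 1 higher) and without KO replicate 2. It was 2 without WT replicate 1, without KO replicate 3 and with the replicate block, and 6 with limma-voom. The share of all genes at this unadjusted p was taken in the main edgeR fit alone. The counts of DESeq2 and the other fits therefore cannot be read against all genes. Without overlap between groups, 3 were lower (Hoxb8, Hoxc4 and Hoxc8; 13.04%) and 0 higher, where the shares of all genes were 7.89% and 7.68%, 15.6% together. The other 16 members were left out by the filter, so these counts do not speak for all 39.

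**Figure D4:**
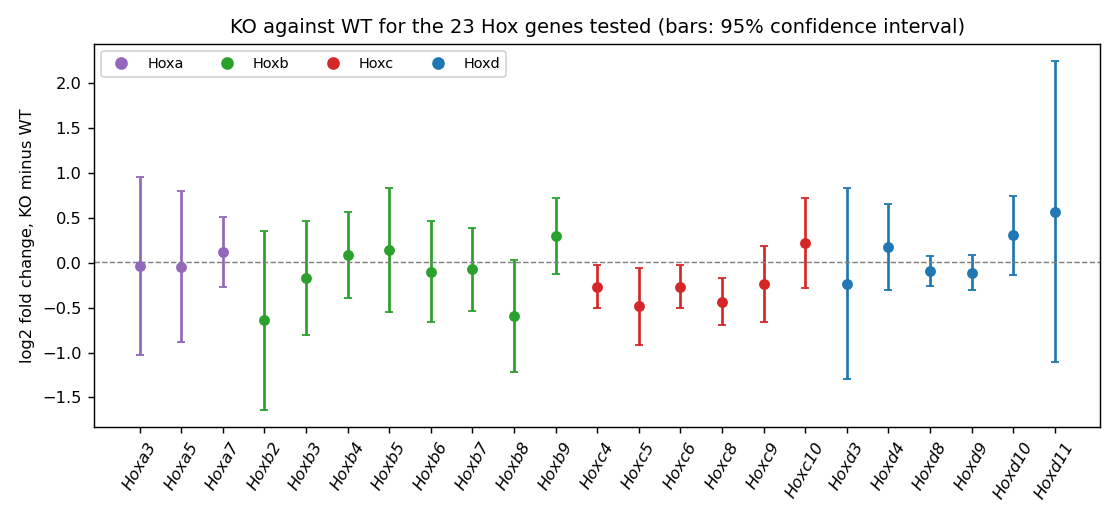
Log2 fold change of KO over WT for the 23 tested Hox genes in cluster order, with bars for the 95% confidence interval of edgeR. The intervals of Hoxc4, Hoxc5, Hoxc6 and Hoxc8 lie below 0 before adjustment, and that of Hoxd11 is the widest of the 23.

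In the other fits too, Hox calls were read against all genes. With 0 Hox genes called, the share of all genes called was 0.214% with RLE scaling, 0.17% with upper quartile scaling, 0.466% with limma-voom, 0.146% with a filter at a mean of 1 CPM and 0.0822% with the replicate block. It was 0.0913%, 0.0428% and 0.0485% without WT replicates 1, 2 and 3 in turn, and 0.139%, 0.193% and 2.26% without KO replicates 1, 2 and 3.

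Hox proteins bind DNA together with TALE homeodomain partners of the PBX, MEIS and PKNOX families. All 9 TALE genes were detected, and 0 passed in either direction in edgeR, where 0.219% of all genes passed. Pbx2 had means of 48.4 ± 0.341 and 49.1 ± 0.0405 CPM. Meis2 had the smallest p of the list (means of 22.3 ± 2.94 and 19.5 ± 0.957 CPM, -0.19 ± 0.10 SE, adjusted p = 0.607).

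Retinoic acid and the CDX factors switch Hox genes on in the embryo. The genes Cdx1, Cdx2 and Cdx4 were at or near 0, with at most 0.0426 CPM in any library. Of the 17 genes of this list 11 were tested, and 0 passed in either direction in edgeR, where 0.219% of all genes passed. Aldh1a1, which makes retinoic acid and is also one of the theca markers used here, read 664, 809.6 and 703 CPM across WT and 1375, 975 and 1163 CPM across KO. The groups did not overlap (log2 fold change 0.69 ± 0.14 SE, adjusted p = 0.125, edgeR). The gene was called without KO replicate 3 (adjusted p = 0.0277), with no filter (0.00848) and by DESeq2 (0.000225). Aldh1a2, a related enzyme, read 87.9, 117 and 115 CPM across WT and 79.1, 69.5 and 57.0 CPM across KO. Here the KO values were the lower ones, without overlap (-0.64 ± 0.15 SE, adjusted p = 0.270, edgeR), and DESeq2 called the gene (0.00611).

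No chromatin gene of the lists that act on Hox clusters was called, where 0.219% of all 18250 genes tested were. A count of 0 in lists this short therefore says little of them. Among 12 PRC2 genes, 16 PRC1 genes and 12 tested genes of the H3K27 demethylases and the COMPASS complexes, 0 passed in either direction in edgeR. The median log2 fold changes were -0.04, -0.03 and 0.07. Rbbp7, a histone-binding subunit of PRC2, had the smallest p of its list (-0.17 ± 0.08 SE, adjusted p = 0.542). Ezh2, the methyltransferase, had means of 71.7 ± 5.53 and 66.1 ± 5.10 CPM. Men1, the menin subunit that brings COMPASS to Hox genes, had means of 74.4 ± 2.53 and 82.5 ± 2.93 CPM, without overlap (0.15 ± 0.06 SE, adjusted p = 0.508).

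Within the 4 cluster spans, 46 other genes were counted, and 3 of them were detected. Of the 8 tested 0 were called, where 0.219% of all genes were. The highest in CPM was Gm53, a long non-coding RNA 5′ of Hoxb9, which read 10.9, 10.03 and 10.1 CPM across WT and 8.40, 11.3 and 9.09 CPM across KO (log2 fold change -0.11 ± 0.13 SE, adjusted p = 0.815). Per kilobase its 2.51 CPM was above the 1.33 CPM of Hoxb7, the highest Hoxb gene on that scale. The antisense gene Hoxd3os1, which spans Hoxd8, had means of 6.07 ± 0.186 and 5.17 ± 0.451 CPM, without overlap (-0.23 ± 0.13 SE, adjusted p = 0.620). The third was Mir196a-1 in Hoxb, whose hairpin region was at 0.931 CPM on average. The mature miR-196a and miR-196b, which target Hox transcripts, are given because they show a shared seed (capitals, bases 2 to 8) across copies in 3 clusters (RefSeq, GRCm38.p6).
miR-196a-5p: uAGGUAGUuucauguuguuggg
miR-196b-5p: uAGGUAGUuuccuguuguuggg
The hairpin regions of Mir196a-2 in Hoxc and Mir196b in Hoxa were at 0.00355 and 0 CPM. Counts over a hairpin do not measure the mature miRNA.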

How the data were processed

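Each library came as its own table, in which the authors deposited raw read counts per gene. The submitters' processing notes list GRCm38, featureCounts (Subread 1.5.2), STAR 2.5.2b and Trimmomatic 0.36. For annotation release, strand and multi-mapped reads, settings were not given in the sources used here. Identifiers of 49056 of 49315 genes were found in GENCODE M21, and all 39 Hox genes had the same span in both. The model was fitted with edgeR 4.0.16 (R 4.3.3) on the 18250 genes kept by filterByExpr, with TMM, robust dispersion, group alone as a term, a two-sided quasi-likelihood test and Benjamini-Hochberg adjustment. The procedure was tested on simulated data. Gene lengths came from the count tables. The members and lists were chosen with earlier results of these data known. Any Hox gene could be named; of other lists, Kdm6b, Kdm6a, Ezh2, called genes and the 2 members with the highest mean and the 2 with the smallest p. Gm28309, the miRNA genes, the Cdx genes and, in the closing section, Evx1 and Evx2 were picked after their values were known. No set test was made, and no library was left out. Alternatives were DESeq2 1.42.0, limma-voom (limma 3.58.1), RLE and upper quartile scaling, other filters and detection limits, a replicate block, and each library left out. Homeobox bases were used, and protein sequences were not used here. A few genes of the lists are not reported here by name.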

Additional observations from a re-analysis of the deposited data

How the results depend on the processing

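The number of Hox genes called was 0 in each alternative except with no filter, where it was 1 (Hoxc8). Among all genes tested, 40 were called, against 221 by DESeq2, 85 by limma-voom, 199 with no filter, 21 with a filter at a mean of 1 CPM, and between 8 (without WT replicate 2) and 421 (without KO replicate 3) with 1 library left out. In the cofactor, regulator, chromatin and neighbour lists 0 were called, against 2 by DESeq2 (Aldh1a1 and Aldh1a2), 1 with no filter and between 0 and 1 with 1 library left out. The median log2 fold change of the tested Hox genes, -0.09, ranged from -0.155 (without KO replicate 2) to 0.00886 (without WT replicate 3, where its sign turned), and was -0.00869 without KO replicate 3. The cause was not tested. The number of detected Hox genes, 19, lay between 15 (at 1 CPM) and 23 (at 0.25 CPM) over the alternatives, and between 17 and 19 with 1 library left out.

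With the replicate block 15 genes were called in all, and 0 Hox genes. Libraries that share a number did not deviate together (correlations of -0.017, 0.074 and -0.033), so the numbers were not taken as pairs. Not every library correlated best with its own number. Depth limits what can be said of the 20 undetected genes, and 3 libraries a group limit the precision of every fold change.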

Other observations

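The coding genes beside the clusters were read in the same way. Of the 3 nearest coding genes on each side of each cluster, 24 in all, 21 were detected and 21 tested. In edgeR 0 of them passed, where 0.219% of all genes did. Hnrnpa1, an RNA-binding protein gene beside Hoxc, had means of 838 ± 43.7 (WT) and 795 ± 58.4 CPM (KO; SD, n = 3 each), and Hnrnpa3 beside Hoxd of 748 ± 35.2 and 748 ± 107 CPM. Smug1, a DNA repair gene beside Hoxc, read 25.8, 25.6 and 26.5 CPM across WT and 21.7, 23.1 and 23.2 CPM across KO, without overlap (log2 fold change -0.20 ± 0.07 SE, adjusted p = 0.445). Evx1, a homeobox gene beyond the 5′ end of Hoxa, read 1.98, 2.27 and 2.71 CPM across WT and 1.90, 1.81 and 2.45 CPM across KO, with overlap. Evx2, in the same place beside Hoxd, had at most 0.0213 CPM in any library. The Hoxd genes nearest to it, Hoxd13 and Hoxd12, were undetected too, with means of 0.0849 and 0.209 CPM. Hoxa13, the Hoxa gene nearest to Evx1, was also undetected, with a mean of 0.0646 CPM.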
